A study of Mus musculus with 6 samples.

Results

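Sox9, Sox4, Onecut1 and Onecut2 encode transcription factors of bile duct cells and of the bipotent liver progenitor, and their transcripts were followed in mouse liver with and without the kinases Mst1 and Mst2. The genes were taken by symbol, and all 4 were among the 22068 symbols in each file and among the 11062 tested, which average 1 RPKM or more (RPKM is a read number scaled for transcript length and library size). Polyadenylated RNA was sequenced from whole liver of C57BL/6 mice aged 6 weeks, as 3 control and 3 Mst1/2 liver-dKO (dKO) libraries. Control mice were Mst1-/-, Mst2fl/fl and alb-Cre-/-, and dKO mice were Mst1-/-, Mst2fl/fl and alb-Cre+/+. Both groups thus lacked Mst1 and carried loxP-flanked Mst2, and they differed in Cre recombinase under the albumin promoter, which is active in hepatocytes and their precursors. No group with Cre and intact Mst2 was among the samples, so Cre itself and the loss of Mst2 cannot be told apart. Whether each replicate was its own animal is not stated, and the p-values cover only library-to-library spread, which may be technical. The share of recombined cells was not measured. Values listed for a group are in the order of replicates 1, 2 and 3.

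Mst1 and Mst2 (Stk4 and Stk3 in mouse nomenclature) head the Hippo kinase cascade, which keeps the coactivators YAP and TAZ out of the nucleus, where they bind DNA through TEAD factors. SOX9 is an HMG-box factor that marks the ductal plate and adult bile ducts, and SOX4 is a related factor that acts with SOX9 in bile duct formation. ONECUT1 (HNF6) and ONECUT2 are cut-homeodomain factors that act in hepatoblasts, and ONECUT1 is also present in hepatocytes, where it drives metabolic genes.

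Across the series, limma called 1965 genes higher (17.8% of those tested) and 240 lower (2.17%) in dKO, at a Benjamini-Hochberg adjusted p under 0.05. After median-ratio scaling of the libraries these numbers were 866 (7.86%) and 613 (5.57%), and the scaling moved the median log2 change of tested genes from 0.23 to -0.01. The spacing of low values gave estimated depths at which 1 RPKM stood for about 17.35 to 24.85 reads per kilobase, depending on the library. On the first principal component dKO replicate 3 lay at 49.0, against 20.3 and 19.2 for the other dKO libraries and -35.7 to -25.4 for the controls. Stk3 measured 6.00, 5.42 and 5.20 RPKM in control and 5.13, 4.25 and 5.32 RPKM in dKO (limma adjusted p = 0.424). Stk4 measured 5.50, 4.69 and 4.66 RPKM in control against 5.84, 4.93 and 5.76 RPKM in dKO (limma adjusted p = 0.487), and for both kinases the groups overlapped. A value per gene cannot show the deletion of single exons, so these levels did not test the genotypes.

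Transcripts of Sox9, Sox4 and Onecut1 rose in dKO liver, by 9.17-fold, 15.3-fold and 3.00-fold, whereas Onecut2 did not pass the test. In all 3 genes that rose, every dKO library lay above every control library, which was also so for 38.3% of tested genes. Relative to the median gene, after median-ratio scaling, the log2 changes were 2.37 for Sox9, 3.20 for Sox4, 1.08 for Onecut1 and -0.46 for Onecut2.

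**Figure D1:**
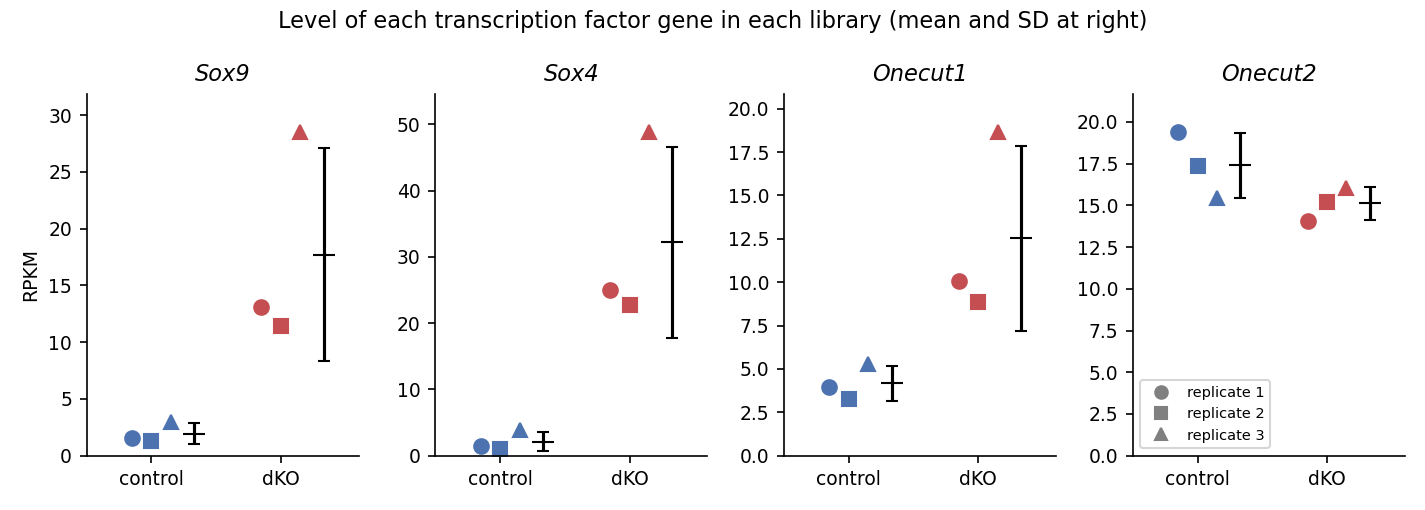
Level in RPKM (linear axes from 0, one scale per panel) of Sox9, Sox4, Onecut1 and Onecut2 in each control (blue) and dKO (red) library, with the group mean and SD (n = 3) in black. dKO replicate 3 is the highest library in the first 3 panels (28.5, 48.8 and 18.6 RPKM), while the groups overlap for Onecut2.

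Sox9 stood at 1.57, 1.26 and 2.96 RPKM in the controls, and the dKO libraries held 13.1, 11.5 and 28.5 RPKM. The lowest dKO library was 3.87 times the highest control library, and replicate 3 was the highest library in both groups. The means were 1.93 ± 0.91 and 17.7 ± 9.39 RPKM (SD, n = 3), and the log2 change, on the log2(RPKM + 1) scale, was 2.61 ± 0.35 (SE; limma adjusted p = 0.00519). That scale understates the change of genes with low levels. Only 37 of the tested genes (0.334%) had a larger log2 change. Without dKO replicate 3 the fold was 6.37, and without control replicate 3 it was 12.5.

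Sox4 measured 1.45, 1.08 and 3.80 RPKM in the control libraries and 25.0, 22.7 and 48.8 RPKM in the dKO libraries. All dKO libraries were high, at 5.98 times the highest control library or more, and control replicate 3 stood above the other controls. The means were 2.11 ± 1.48 and 32.2 ± 14.4 RPKM (SD, n = 3), and the log2 change was 3.43 ± 0.39 (SE; limma adjusted p = 0.00348). Larger log2 changes were found at 6 of the tested genes (0.0542%). The fold came to 25.5 when control replicate 3 was omitted, to 11.3 when dKO replicate 3 was, and to 18.9 when both were. The counting was not stated to use strand, and in GENCODE M21 a long noncoding RNA gene, Gm26735, overlaps Sox4 on the opposite strand, so reads of the pair cannot be told apart.

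The DNA just before the Sox4 start is shown because TEAD factors carry YAP and TAZ to DNA and the sequence holds a match to their core motif. The 250 bases upstream of the start in RefSeq (GRCm38.p6, minus strand, chr13:28953700-28953949), written on the strand of the gene with the motif match in capitals, are
Sox4: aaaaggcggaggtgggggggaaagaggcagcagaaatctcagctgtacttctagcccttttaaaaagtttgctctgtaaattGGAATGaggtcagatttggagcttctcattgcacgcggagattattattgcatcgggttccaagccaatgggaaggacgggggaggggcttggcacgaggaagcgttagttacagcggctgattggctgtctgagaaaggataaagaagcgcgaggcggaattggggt
The match to GGAATG (TEAD) lies 168 to 163 bases before the start. Of 32851 RefSeq promoter windows of this length, 12.6% hold GGAATG on either strand, so a match is common, and binding was not measured here. GTGGGAA (RBPJ, the Notch effector), ATTGAT (ONECUT), TGTTTAC (FOXA) and ATTGTT (SOX), searched on both strands, had no match in this window, and 5.42%, 6.72%, 3.17% and 9.42% of all windows hold them.

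Onecut1 measured 3.99, 3.27 and 5.26 RPKM in the control libraries and 10.1, 8.85 and 18.6 RPKM in the dKO libraries. The groups were closer than for the SOX genes: the lowest dKO library was 1.68 times the highest control library. The means were 4.17 ± 1.01 and 12.5 ± 5.33 RPKM (SD, n = 3), and the log2 change was 1.34 ± 0.27 (SE; limma adjusted p = 0.0144). Without control replicate 1 the log2 change was 1.32 and the call was lost (limma adjusted p = 0.0596, range over 16 alternatives 0.00142 to 0.0596). The fold was 2.27 without dKO replicate 3. A long noncoding RNA gene, Gm20649, overlaps Onecut1 on the same strand in GENCODE M21, and how the authors assigned shared reads is not given in the sources used here.

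The window before Onecut1 is set beside that of Sox4 because both transcripts rose in dKO. In RefSeq (GRCm38.p6, plus strand, chr9:74861671-74861920) it reads
Onecut1: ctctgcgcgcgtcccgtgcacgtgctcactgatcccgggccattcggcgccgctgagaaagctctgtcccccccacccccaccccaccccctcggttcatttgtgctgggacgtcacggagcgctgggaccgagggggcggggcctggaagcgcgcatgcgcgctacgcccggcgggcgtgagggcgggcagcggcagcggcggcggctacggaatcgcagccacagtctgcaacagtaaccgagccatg
None of the 5 motifs was found in these 250 bases, which says only that these letters are not in this window. G and C make up 71.6% of it, against 50.8% of the Sox4 window.

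Onecut2 measured 19.4, 17.4 and 15.5 RPKM in the control libraries and 14.1, 15.2 and 16.03 RPKM in the dKO libraries. The groups overlapped, with dKO replicate 3 above control replicate 3, whereas at 6.73% of tested genes every dKO library lay below every control library. The means were 17.4 ± 1.96 and 15.1 ± 0.98 RPKM (SD, n = 3), and the log2 change was -0.19 ± 0.13 (SE; limma adjusted p = 0.3). Its 95% interval ran from -0.48 to 0.10, so in this fit without scaling a small difference in either direction is within the error. The value was negative under each of the 16 alternatives. It was -0.46 ± 0.13 after median-ratio scaling, -0.42 ± 0.13 after upper-quartile scaling and -0.42 ± 0.12 after quantile normalization (SE). The lowest limma adjusted p among the 16 was 0.0502, after median-ratio scaling.

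**Figure D2:**
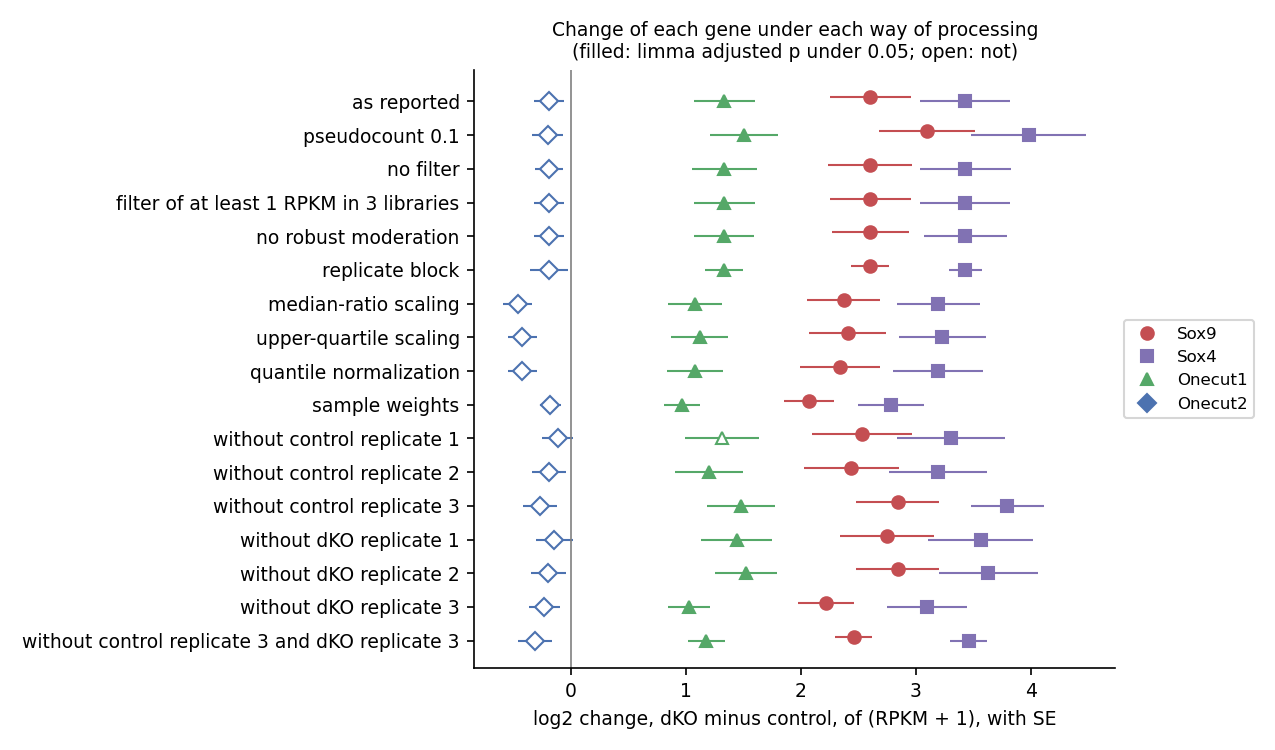
Log2 change (dKO minus control, horizontal axis, bars are SE) of the 4 genes as reported and under 16 alternative ways of processing, with filled symbols for a limma adjusted p under 0.05. Sox9 and Sox4 are filled throughout, Onecut1 is open without control replicate 1, and Onecut2 is open throughout.

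Onecut1 and Onecut2 are close paralogs, and their proportion differed between the groups. Onecut1 made up 17.1%, 15.8% and 25.4% of the summed Onecut1 and Onecut2 RPKM in the controls and 41.7%, 36.8% and 53.8% in dKO. The groups did not overlap, and only in dKO replicate 3 was Onecut1 the more abundant of the pair. The sum itself was 21.6 ± 1.55 RPKM in control and 27.6 ± 6.10 RPKM in dKO (SD, n = 3), with 34.7 RPKM in dKO replicate 3 and 24.2 and 24.1 RPKM in the other dKO libraries. The difference of Onecut2 minus Onecut1 on the log2(RPKM + 1) scale was 1.84 ± 0.39 in control and 0.32 ± 0.48 in dKO. An exact two-sided permutation test gave p = 0.1, the smallest that 3 against 3 libraries allow, and 0.1 after adjustment over the 2 pairs compared. The gene lengths behind the RPKM are not given in the sources used here and set the ratio within a library, but they cancel in its change between groups.

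**Figure D3:**
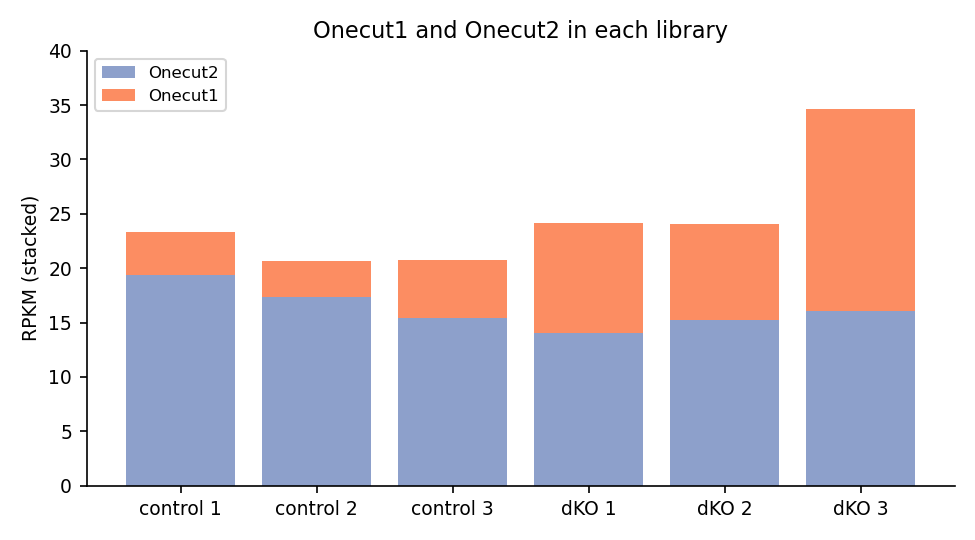
Stacked RPKM of Onecut2 (blue, below) and Onecut1 (orange, above) in each of the 6 libraries, on an axis from 0. The blue part stays between 14.1 and 19.4 RPKM, and the orange part rises from at most 5.26 RPKM in control to at least 8.85 RPKM in dKO.

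Sox4 and Sox9 were at like levels in control liver and apart in dKO liver. Sox4 was 0.919, 0.857 and 1.28 times Sox9 in the controls and 1.91, 1.98 and 1.71 times Sox9 in dKO. The increase of Sox4 exceeded that of Sox9 by 0.83 on the log2 scale, from a difference of 0.03 ± 0.22 in control to 0.85 ± 0.09 in dKO (SD, n = 3). With an exact two-sided permutation test this had p = 0.1, again the smallest possible, and 0.1 after adjustment over the 2 pairs. By RPKM the order in each control library was led by Onecut2 with Onecut1 next, and in each dKO library Sox4 was the most abundant of the 4. Sox9 was above Onecut1 in each dKO library, while Onecut2 was above both in dKO replicates 1 and 2 and below both in dKO replicate 3, so its place among these 3 was not settled.

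Sox9, Sox4 and Onecut1 also ranked the 6 libraries alike. From low to high the order was control replicates 2, 1 and 3 and then dKO replicates 2, 1 and 3 for each of them. This order was found at 248 of the 11062 tested genes (2.24%), or 5.85% of the 4241 genes with every dKO library above every control library, as the 3 factors had. It was shared by 4 of the 18 tested biliary effector genes (Spp1, Bicc1, Pkd2 and Cdh1) and by 0 of 3 tested cholangiocyte markers. Elf3, Sox7, the YAP target gene Ankrd1 and the stellate marker Ngfr had it too. Onecut2 ran otherwise, from dKO replicate 1 at the bottom to control replicate 1 at the top.

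Patterns were compared by the root mean square difference over the 6 libraries of log2(RPKM + 1), each gene centred on its own mean, among 6584 genes that average 5 RPKM or more. Closest to Sox9 were Mfge8 (difference 0.156), which encodes a secreted bridge to apoptotic cells, Tes (0.182), a focal adhesion protein gene, Elf3 (0.207), an epithelial ETS factor gene, and Slpi (0.228), a protease inhibitor gene. Mfge8 stood at 5.19, 5.05 and 7.58 RPKM in control and 39.6, 35.5 and 69.3 RPKM in dKO, which repeats the library order of Sox9 on a higher level. For Sox4 the nearest were Pla2g5, a secreted phospholipase gene (0.1497), Pak6, a kinase gene (0.166), Gpc3, an oncofetal glypican gene (0.175), and Espn, an actin-bundling protein gene (0.183). Control means were low for Pla2g5, Pak6 and Espn (0.612, 0.669 and 0.954 RPKM) and for Tes, Elf3 and Slpi (1.25, 0.872 and 0.664 RPKM). Those genes reached an average of 5 RPKM only through their dKO levels.

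Timp2, which encodes a metalloproteinase inhibitor, followed Onecut1 most closely (0.0670), with 4.74, 3.94 and 6.02 RPKM in control and 10.7, 10.5 and 23.1 RPKM in dKO. Card10 (0.0819), Ezr, which encodes the membrane-cytoskeleton linker ezrin (0.102), and Cdh1, the E-cadherin gene (0.114), came next. The genes nearest to Onecut2 were Uvrag, Slc35b4, Alkbh5 and Acvr2a, with differences of 0.0373 to 0.0410, and they varied as little as Onecut2 did. Among the 4 factors themselves the nearest pair was Sox9 and Sox4 (0.435). Onecut1 lay at 0.647 from Sox9, 0.841 from Onecut2 and 1.07 from Sox4. Of the 6584 genes by likeness to Onecut1, Sox9 ranked 2731, Onecut2 5267 and Sox4 6211, so many other genes lay nearer. By likeness to Sox9, Sox4 ranked 45, Onecut1 113 and Onecut2 5412. By likeness to Sox4, Sox9 ranked 16, Onecut1 133 and Onecut2 5494. Patterns were centred but not scaled, so the difference also grows where 2 genes change by unequal amounts.

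**Figure D4:**
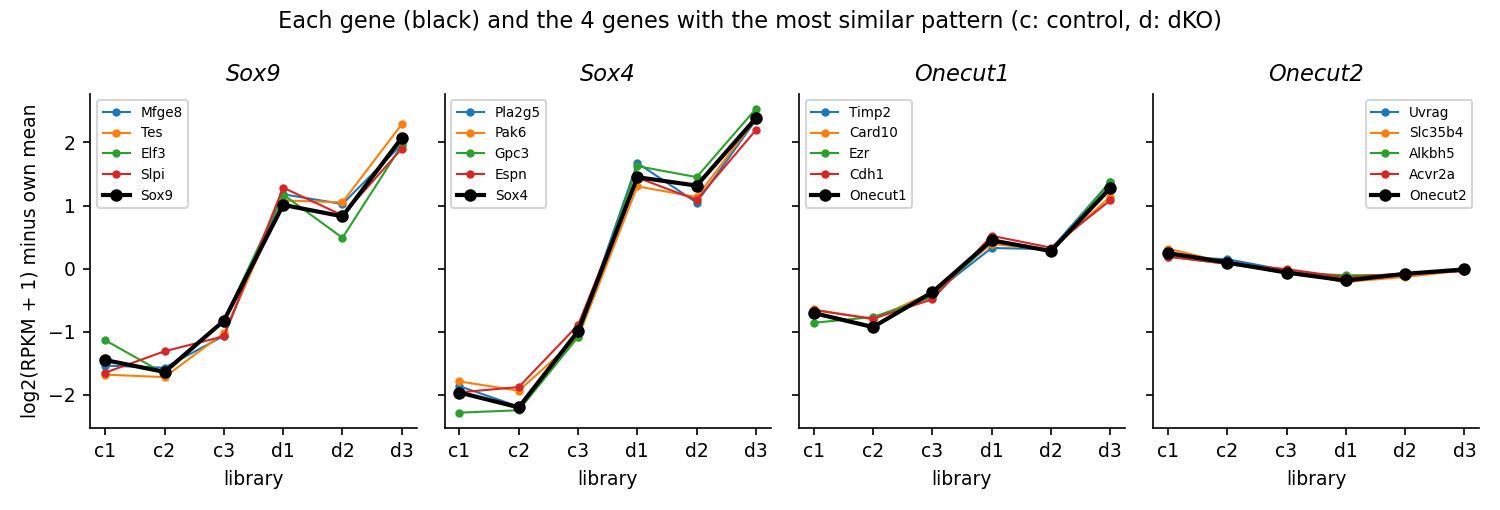
Log2(RPKM + 1) minus the gene's own mean over the 6 libraries (c1 to c3 control, d1 to d3 dKO; lines only join the points of a gene) for each factor in black and the 4 genes with the smallest root mean square difference in colour. The curves for Sox9, Sox4 and Onecut1 step up between c3 and d1 and peak at d3, and those around Onecut2 stay nearly flat.

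Some other factors of bile duct and hepatoblast development changed as well. Of 23 on the list, 16 passed the filter, 5 rose and 1 fell, a share of 31.2% higher against 17.8% of all tested genes. Their median log2 change was 0.26, against 0.23 for all tested genes. After median-ratio scaling 5 rose and 2 fell, and without replicate 3 of both groups 3 rose. Elf3 passed the filter only through its dKO level, and of the 15 factors with a mean of 1 RPKM or more in both groups 4 rose (26.7%, against 16.4% of all genes with such means).

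Elf3 rose 10.9-fold, from 0.872 ± 0.529 to 9.54 ± 5.27 RPKM, and Hes1, a Notch target and repressor gene, rose 2.58-fold (limma adjusted p = 0.00818 and 0.00263). Foxa1, a pioneer factor gene, rose from 4.58 ± 0.72 to 10.1 ± 2.05 RPKM, a call lost only without replicate 3 of both groups (limma adjusted p = 0.00818, range over 16 alternatives 0.00116 to 0.0648). Its paralog Foxa2 stood at 7.16 ± 1.19 and 8.98 ± 0.94 RPKM (limma adjusted p = 0.168). Tbx3, a T-box factor of hepatoblasts, fell from 9.95 ± 2.06 to 5.19 ± 0.89 RPKM (limma adjusted p = 0.0157), a call lost without control replicate 1 and without replicate 3 of both groups (range over 16 alternatives 0.00218 to 0.104). The hepatocyte factor gene Hnf4a was at 133 ± 12.8 and 114 ± 5.13 RPKM (limma adjusted p = 0.295), and Hhex, a homeobox gene of early liver, at 40.7 ± 12.7 and 36.4 ± 2.42 RPKM (limma adjusted p = 0.684).

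Among the other 17 Sox genes listed, 11 stayed below the filter, and of the 6 tested limma called 0, beside 17.8% higher and 2.17% lower of all tested genes. At 6 genes a count of 0 does not set the family apart from that background, and 1, Sox7, had an unadjusted p under 0.05. Sox7, named for that p after its value was seen, had means of 0.831 ± 0.016 and 1.38 ± 0.14 RPKM (limma adjusted p = 0.104). Sox5, Sox6, Sox12, Sox13 and Sox18 all had means between 1.02 and 3.81 RPKM in each group, with limma adjusted p of 0.204 to 0.919. Sox17, an endodermal and endothelial factor gene below the filter, had group means of 0.431 ± 0.146 and 0.644 ± 0.260 RPKM. By level, Sox9 and Sox4 in control liver were at levels like those of several other Sox genes, and in dKO liver they alone had a mean above 5 RPKM among the Sox genes listed.

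The cut-homeobox relatives gave 1 call, which 12 of 16 alternatives removed. With 2 genes tested, this count cannot be read against the 17.8% of all tested genes called higher. Of 5 genes, 2 were tested, and Cux1 had means of 4.10 ± 0.64 and 6.06 ± 0.61 RPKM (limma adjusted p = 0.0495). The call was lost after each of 3 scalings, with no filter, with a replicate block and without any 1 library (range over 16 alternatives 0.0277 to 0.459). Cux2, known for higher levels in female liver, varied within groups, from 1.501 to 6.62 RPKM in control and from 2.57 to 8.01 RPKM in dKO, and the sex of the mice is not given in the sources used here. Onecut3 was listed at 0 in 5 libraries and at 0.0195 RPKM in dKO replicate 1, and Satb1 reached at most 0.173 RPKM in any library.

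Genes that carry out bile duct functions rose in large part. Of 26 biliary effector and surface genes 18 passed the filter, 15 rose (83.3%, against 17.8% of all tested genes) and Aqp1, Slc4a2 and Pkd1, named after their values were seen, were not called. The median log2 change was 1.46, 13 rose after median-ratio scaling and 10 to 15 rose when 1 library was left out. Epcam and Cldn7 passed the filter only through their dKO levels, which favours a call, and of the 16 genes with a mean of 1 RPKM or more in both groups 13 rose (81.2%, against 16.4% of all such genes). Earlier results on these samples were known when the list was drawn up, so its direction is not independent evidence. Spp1, the osteopontin gene and a known companion of Sox9 in duct cells, measured 20.9, 18.7 and 64.7 RPKM in control and 454, 306 and 910 RPKM in dKO. As with the 3 factors, replicate 3 was the highest library of each group. Epcam, a surface protein gene of duct and progenitor cells, was below 1 RPKM in each control library and at 4.57, 3.73 and 12.01 RPKM in dKO (limma adjusted p = 0.00851).

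Pkhd1 and Pkd2, whose products sit at the primary cilium, rose 5.28-fold and 2.98-fold, and Bicc1, which encodes an RNA-binding protein, rose 10.7-fold (limma adjusted p = 0.00361, 0.00447 and 0.00365). Prom1, the CD133 gene, rose 3.35-fold. The duct keratin genes Krt7 and Krt19 stood at lower levels. Krt7 was below the filter, with means of 0.260 ± 0.095 and 0.918 ± 0.157 RPKM, a fold of 3.53. Krt19 rose 2.47-fold to 3.18 ± 1.47 RPKM (limma adjusted p = 0.0473), a call lost under 11 of 16 alternatives, among them the omission of any 1 control library, of dKO replicate 2 or of dKO replicate 3 (range 0.0239 to 0.181). The other keratin genes listed, named after their values were seen, were all called higher. Krt23 rose 4.19-fold, Krt18 3.00-fold and Krt8 2.86-fold, to 13.8, 248 and 180 RPKM. Their calls were kept under 16, 12 and 10 of the 16 alternatives.

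**Figure D5:**
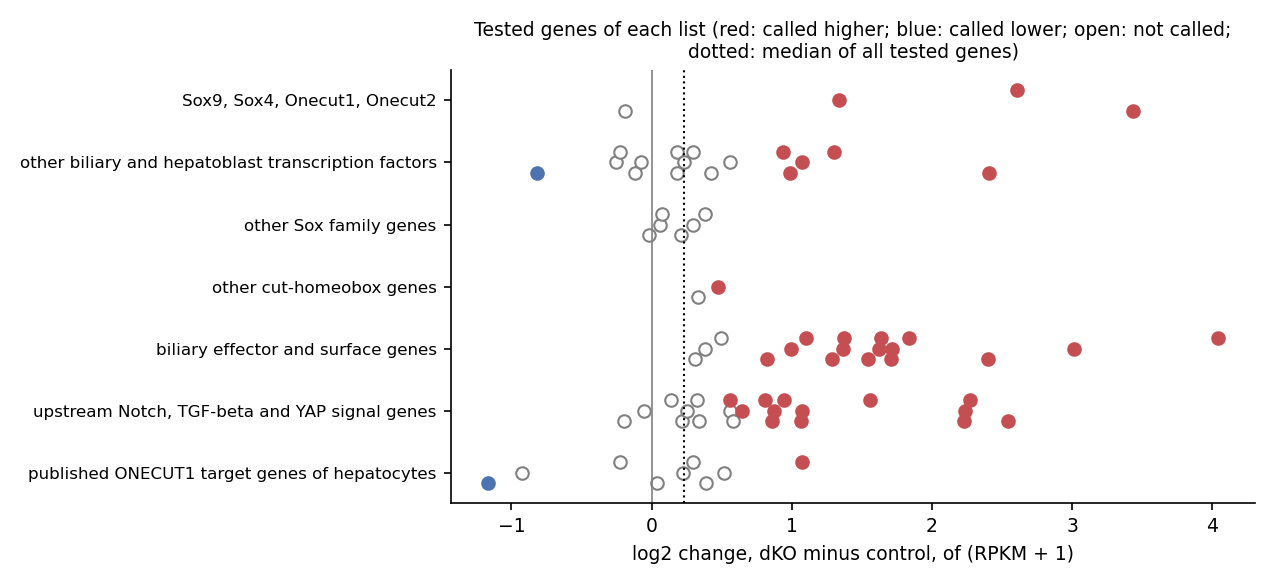
Log2 change (dKO minus control) of every tested gene of the 4 factors and of 6 gene lists, in red where called higher, blue where called lower and open where not called, with a dotted line at the median of all tested genes (0.23). Red points fill most of the biliary effector row (15 of 18), while all 6 tested relatives in the Sox row are open.

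Signals known to act upstream of these factors were followed in a list of 28 Notch, TGF-beta and YAP genes. Some of the 28, such as Ankrd1, are targets of these pathways, so the counts are not of upstream signals alone. Of 22 tested, 13 rose (59.1%, against 17.8% of all tested genes) and none fell, with a median log2 change of 0.73; 9 rose after median-ratio scaling, 8 without control replicate 1 and 7 without replicate 3 of both groups. Of the 22 genes, 15 had an unadjusted p under 0.05. Such a p was common in the series: the 17.8% of tested genes called higher and the 2.17% called lower had one, as did genes not called. The full share among all tested genes was not counted. Counts of unadjusted p, here and in the lists below, therefore do not by themselves set a list apart. Tgfb2 and Ankrd1 passed the filter only through dKO, and 11 of the 20 others rose (55%, against 16.4% of all genes at 1 RPKM or more in both groups). Jag1, the Notch ligand gene of the duct niche, measured 1.15, 1.20 and 1.08 RPKM in control and 3.19, 2.63 and 5.08 RPKM in dKO (limma adjusted p = 0.0101, lost only without replicate 3 of both groups, at 0.0517). Rbpj, which encodes the DNA-binding partner of Notch, rose from 1.40 ± 0.25 to 3.34 ± 0.46 RPKM, with the call lost under quantile normalization (limma adjusted p = 0.00952, range 0.000857 to 0.0962). The receptor gene Notch2 rose 1.66-fold (limma adjusted p = 0.023), a call lost under 6 of 16 alternatives, among them 3 scalings and the omission of control replicate 1 or 3 (range 0.00839 to 0.107).

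The TGF-beta ligand gene Tgfb2 rose from 0.558 ± 0.174 to 2.06 ± 0.83 RPKM (limma adjusted p = 0.02), a call lost under quantile normalization, without control replicate 1 and without replicate 3 of both groups (range 0.0032 to 0.0716). Without dKO replicate 3 its mean fell below the filter. Tgfbr2, the receptor gene that ONECUT factors are known to restrain in hepatoblasts, was at 6.20, 5.73 and 6.55 RPKM in control and 9.25, 6.23 and 15.6 RPKM in dKO (limma adjusted p = 0.152). Among YAP and TAZ genes Amotl2, Ctgf, Cyr61 and Wwtr1, which encodes TAZ, rose by 5.26-fold, 5.93-fold, 7.0-fold and 1.86-fold, and kept their calls under all 16 alternatives. Yap1 itself stood at 18.6 ± 1.91 and 23.5 ± 2.64 RPKM (limma adjusted p = 0.12).

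Published ONECUT1 targets of hepatocytes were called in both directions. All 9 were tested, 1 rose (11.1%, against 17.8% of all tested genes) and 1 fell (Ttr, the transthyretin gene; 2.17% of all tested genes fell). An unadjusted p under 0.05 was found at 4 of them, a count not compared with all tested genes. Their median log2 change was 0.23, beside 0.23 for all tested genes. Ttr went from 6223 ± 1055 to 2906 ± 1097 RPKM (limma adjusted p = 0.0413), a call lost under 11 of 16 alternatives, the scalings and the omission of control replicate 1 or 3 or of dKO replicate 1 or 3 among them (range 0.00365 to 0.308). G6pc, the glucose-6-phosphatase gene, was at 277 ± 111 and 140 ± 34.7 RPKM (limma adjusted p = 0.0709). Cyp7a1, the rate-limiting enzyme gene of bile acid synthesis, was at 2.78, 11.4 and 21.8 RPKM in control and 16.6, 13.2 and 11.4 RPKM in dKO (limma adjusted p = 0.585), so its control libraries spanned its dKO libraries.

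In whole tissue, more cells of a type and more RNA per cell cannot be told apart, and markers of several cell types were therefore set beside the factors. Of 10 cholangiocyte markers, 7 were below the filter. The 3 tested all rose, beside 17.8% of all tested genes: Krt19, Pkhd1 and Epcam, which passed the filter only through its dKO level. Cftr, Sctr and Muc1 stayed below 1 RPKM in each library. In 6 of the 10 every dKO library lay above every control library, beside 38.3% of tested genes. Among these 6, Krt7 (3.53-fold), Cftr (5.29-fold) and Cldn4 (4.46-fold) were below the filter and not tested. The summed level of the 10 was 3.48 to 5.56 RPKM in control and 14.4 to 32.3 RPKM in dKO, 4.49-fold higher, with dKO replicate 3 highest. Over the same libraries Sox9 rose 9.17-fold, Sox4 15.3-fold and Onecut1 3.00-fold, and the part of a change in cholangiocyte number was not tested. Proliferation markers summed to 19.9 to 24.5 RPKM in control and 35.8 to 36.3 RPKM in dKO, with 2 of 5 called higher (Mki67 and Cdk1, beside 17.8% of all tested genes) and 5 of 5 at an unadjusted p under 0.05. The call of Mki67 was kept under 12 of 16 alternatives and that of Cdk1 under 6, and each of the 3 scalings removed both.

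Stellate markers summed to 171 to 195 RPKM in control and 178 to 296 RPKM in dKO, with the top value in dKO replicate 3 and 1 of 10 called higher (Ngfr) and 1 lower (Hand2), beside 17.8% and 2.17% of all tested genes. An unadjusted p under 0.05 was found at 5 of the 10, and for no marker list was this count compared with all tested genes. Most of the sum was Dcn, and without it the fold went from 1.21 to 1.58. In 4 of the 10 every dKO library lay above every control library, near the 38.3% of all tested genes for which this held. Ngfr was among the 4, and the others, not called, were Col1a1 (3.47-fold, limma adjusted p = 0.0699), Pdgfrb (2.12-fold, limma adjusted p = 0.0677) and Col3a1 (2.04-fold, limma adjusted p = 0.117). Kupffer and macrophage markers ran from 110 to 226 RPKM and from 181 to 265 RPKM. Of the 8, 1 was called higher (Vsig4, beside 17.8% of all tested genes) and 4 had an unadjusted p under 0.05. Of these 4, Vsig4, Clec4f and Csf1r were higher in dKO, and Marco was lower. Marco had means of 12.5 ± 7.47 and 3.52 ± 1.11 RPKM (limma adjusted p = 0.0531). For endothelial markers the ranges were 93.7 to 97.7 and 100.1 to 114 RPKM, with 0 of 8 called by limma and 0 at an unadjusted p under 0.05. Hepatocyte markers summed to 60360 to 78720 RPKM in control and 57680 to 66730 RPKM in dKO, so the labelled tissue carried its defining transcripts in all 6 libraries. Of the 10, 3 were called lower (Tat, Serpina1c and Ttr, beside 2.17% of all tested genes). Of 16 alternatives, 15 kept the call of Tat, 8 that of Serpina1c and 5 that of Ttr. An unadjusted p under 0.05 was found at 4, these and Trf, which was 1.66-fold higher in dKO (limma adjusted p = 0.0612). Lymphocyte and neutrophil markers ran from 52.3 to 107 and from 36.6 to 74.8 RPKM, and erythroid markers from 115 to 406 and from 99.2 to 169 RPKM, both overlapping between groups. The pancreas and gut markers Prss1, Cpa1, Pnlip and Cdx2 were listed at 0 in each library, and Cela1 fell. Marker genes outside the rule for named genes were named after their values were seen. The part of these cell types in the changes of the factors was not tested.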

How the data were processed

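Levels of 4 transcription factor genes were compared between 3 control and 3 dKO liver libraries. The deposited values are read as RPKM, made by the authors from reads aligned to mm9 (per the submitters' processing notes); aligner, counter, annotation and gene lengths are not given in the sources used here. The unit was inferred from low values near whole reads (73.4% to 80.1% within 0.15 of one, against 30% if evenly spread). The members and lists were chosen with earlier results of these data known.

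The filter required an average of 1 RPKM over the 6 libraries. On the log2(RPKM + 1) scale, limma 3.58.1 (R 4.3.3, trend and robust moderation, no block) was fitted to all libraries, with Benjamini-Hochberg adjustment over all 11062 genes. The fit was also run on simulated libraries with a common spread for all genes and rises and falls equally likely. Those settings differ from these libraries, so that run does not bear on the calls given here. Pairs of members were compared by exact permutation (scipy 1.17.1). Named genes were the members, Stk3 and Stk4, up to 4 called genes per list with the smallest p, a fixed set of markers and the 4 nearest patterns per member; Tbx3 and genes named only by library order were added after their values were seen. Alternatives were another pseudocount (0.1), 2 filters, no robust moderation, a replicate block, 3 scalings, sample weights, each library left out and, chosen after seeing the data, replicate 3 of both groups left out. RefSeq promoter windows were found for Sox4 and Onecut1. Some genes of the lists are not reported here by name.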

Additional observations from a re-analysis of the deposited data

How the results depend on the processing

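Under 16 alternatives Sox9 and Sox4 kept their direction and call (log2 changes of 2.07 to 3.10 and 2.79 to 3.98), and Onecut2 stayed uncalled. Onecut1 was uncalled without control replicate 1, and its log2 change was 1.03 to 1.53 with 1 library left out. Genes called higher numbered 866 after median-ratio scaling, 942 after upper-quartile scaling, 727 after quantile normalization, 4133 with sample weights, 495 without replicate 3 of both groups and 763 to 1992 with 1 library left out. Genes called lower numbered 613, 536, 554, 601, 58 and 90 to 241 in the same order, and 145 with no filter. Of the other biliary and hepatoblast factors, 3 rose without replicate 3 of both groups and 4 to 5 with 1 library left out; 2 fell after each scaling and with sample weights, 0 without replicate 3 of both groups and 0 to 1 with 1 library left out. With sample weights 1 other Sox gene rose. The number of cut-homeobox relatives called higher was 0 with no filter, with the replicate block, after each scaling, without any 1 library and without replicate 3 of both groups. Of the Notch, TGF-beta and YAP genes, 7 rose and 1 fell after quantile normalization, 1 fell with sample weights, 7 rose without replicate 3 of both groups and 8 to 13 with 1 library left out. Of the ONECUT1 targets, 2 rose after quantile normalization and with sample weights; 0 fell with no filter, without robust moderation, with the replicate block, after each scaling and without replicate 3 of both groups, 2 fell with sample weights and 0 to 2 with 1 library left out. The causes were not tested.

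Over all tested genes, same-numbered libraries did not deviate together (correlations of -0.081, -0.101 and -0.010). Sox9, Sox4 and Onecut1, however, ranked replicates 2, 1 and 3 alike in both groups. With a replicate block the SE went from 0.35 to 0.16 for Sox9, from 0.39 to 0.15 for Sox4 and from 0.27 to 0.16 for Onecut1. Whether the numbers pair the samples is thus not settled. With the replicate block 1513 genes were called higher and 202 lower. The differences between members kept their sign under all 8 alternatives (0.75 to 0.95 for Sox4 minus Sox9, -1.75 to -1.26 for Onecut2 minus Onecut1). With 3 libraries a group, small changes such as that of Onecut2 could not be resolved.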
